A study of Mus musculus with 8 samples.

Results

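The 10 genes described here encode antiviral effectors that cells make in response to interferon: Ifit1, Ifit2, Ifit3, Isg15, Usp18, Rsad2, Ifi44, Mx1, Mx2 and Bst2. They were chosen with earlier results of these data known and taken by gene name from a table of 18768 genes. The table held all 10 of them, and all 10 were among the 15153 genes that had enough counts to be tested. In the cultured mouse fibrosarcoma lines studied, every one of the 10 had less RNA in each of the 4 libraries with the IRF8 KO label than in each of the 4 libraries with the WT label. The mean difference ran from 1.85-fold for Ifit2 to 72.4-fold for Ifi44. How many of all the genes tested separate the labels in this way was not counted.

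Type I interferon binds its receptor at the cell surface and, through the kinases JAK1 and TYK2, activates a transcription factor complex that contains IRF9 and switches on interferon-stimulated genes by binding a repeated GAAA element in their promoters. Many of these genes also show a low tonic level in cells that have met no virus, and IRF family members, of which IRF8 is one, read related elements. The products act at separate steps of infection, from RNA capture by IFIT proteins and ISG15 conjugation to the holding back of budding virions by BST2.

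RNA was sequenced from 4 lines grown from soft tissue tumors that the carcinogen methylcholanthrene (MCA) had induced under the skin of mice. MC654 and MC659 came from wild-type C57BL/6 mice and carry the label WT. MC010 and MC011 came from mice with a germline knockout of Irf8, the gene of the transcription factor interferon regulatory factor 8, and carry the label KO. Each line was established over at least 10 passages from digested tumor tissue, had no treatment in culture that the labels name, and gave 2 libraries. The 4 libraries of a label therefore hold 2 lines. A p-value over libraries counts the 2 libraries of a line as if they were independent, so it is no measure over independent lines. The study used these libraries to look for genes that depend on IRF8 in tumor cells.

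Total counts were 74063616 to 116206078 per library, and the 10 genes took 0.00562% to 0.0558% of them. The unit of level below is CPM, for which each count was divided by the TMM-scaled total of its library, and the level equal to 3 counts was 0.0262 to 0.0408 CPM. Irf8 itself went against the labels: it had 442 and 347 counts in MC010, 32 and 10 in MC011, 1 and 2 in MC654, and 1 and 0 in MC659. In the paper, PCR on genomic DNA typed MC654 and MC659 as WT and MC010 and MC011 as KO. Counts per gene do not show the exons they fell in, so directions below are given by label only. All 10 mesenchymal markers were present, led by Vim and Fn1. Their summed level was 9748 to 10525 CPM in the libraries labelled KO and 14422 to 16165 CPM in those labelled WT. The markers did not move together: 3 were called higher under the KO label, 1 (Fn1) lower, and 6 were not called. Of all genes tested, 13.7% were called higher and 8.72% lower. Fn1 averaged 1587 CPM under the KO label and 7973 under the WT label, and Vim 6221 and 4745. Of 10 hematopoietic markers 5 were in the table, at a summed 5.82 to 7.41 CPM under the KO label and 9.79 to 11.5 CPM under the WT label, most of it Cd68. The macrophage marker Csf1r measured 0.245 to 0.477 CPM under the KO label and 0.935 to 1.80 under the WT label and was called lower with the 10 genes (-1.93, SE 0.31, edgeR adjusted p = 0.00200). The leukocyte gene Ptprc had 18 and 13 counts in MC010, 0 in MC011 and at most 2 in a WT-labelled library, and the other markers of the table, Cd79a and Flt3, had at most 17 counts in a library. The 2 endothelial markers summed to 0.0830 to 0.435 CPM under the KO label and 0.442 to 0.612 CPM under the WT label, and the 2 epithelial markers to 0.313 to 1.59 and 0.249 to 0.372 CPM. The part of these marker differences in the results was not tested. In bulk RNA, fewer cells that express a gene and less of its RNA per cell cannot be told apart.

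Promoter sequence shows what part of the group shares in its DNA. RefSeq promoter windows on GRCm38.p6, from 250 bases before to 50 after each start site, were listed for 7 of the 10 genes, those other than Usp18, Mx1 and Mx2. They were searched on both strands for GAAANNGAAA, which reads TTTCNNTTTC on the other strand and is the core of the element bound by IRF9-containing complexes and other IRFs. Of all 32851 windows, 1131 (3.44%) held it. Of the 8 windows of the 7 genes 5 did, and these belonged to 5 of the genes. The stretches that hold the matches are printed because these are the letters such factors are known to read. Capitals mark the matches, the 2 matches of Bst2 and the 3 of Isg15 overlap each other, and each sequence is given 5′ to 3′ on the strand of its gene.
Ifit1, chr19:34640770-34640828, plus strand: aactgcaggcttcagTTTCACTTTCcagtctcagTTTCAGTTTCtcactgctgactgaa
Ifit3, chr19:34583358-34583431, plus strand: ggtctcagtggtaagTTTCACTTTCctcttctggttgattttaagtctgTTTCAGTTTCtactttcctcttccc
Isg15, chr4:156200860-156200911, minus strand: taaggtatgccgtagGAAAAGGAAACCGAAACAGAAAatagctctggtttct
Rsad2, chr12:26456548-26456587, minus strand: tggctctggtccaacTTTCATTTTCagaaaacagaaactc
Bst2, chr8:71537572-71537617, minus strand: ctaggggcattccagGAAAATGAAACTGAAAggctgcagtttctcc

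These matches lay 56 to 114 bases before the start site at their nearest end. The windows of Ifit2, of which there were 2, and of Ifi44 held no match. The 100 bases before the start of both genes are shown for comparison, with no capitals because nothing in them matched.
Ifit2, chr19:34550594-34550693, plus strand: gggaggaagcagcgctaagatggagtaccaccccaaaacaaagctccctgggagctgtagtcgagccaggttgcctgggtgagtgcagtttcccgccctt
Ifi44, chr3:151749911-151750010, minus strand: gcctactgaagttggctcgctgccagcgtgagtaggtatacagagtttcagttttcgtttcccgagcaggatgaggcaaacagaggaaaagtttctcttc
A match is a run of letters and not a measured binding site, and its absence says only that these letters are not in the window. Among the 7 genes listed, those without a match had the smallest (Ifit2) and the largest (Ifi44) difference between the labels.

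Across the labels, 10 of the 10 genes were called lower under the KO label, where 8.72% of the 15153 genes tested were called lower. Since the 10 genes were chosen with earlier results of these data known, this count is a description and not an independent test. A call needed an adjusted p under 0.05 and a log2 fold change beyond 0.59 in size, by the quasi-likelihood F-test of edgeR, with p-values adjusted across those genes after Benjamini and Hochberg. The median log2 fold change of the 10 genes was -4.23, beside a median of 0.02 over all genes tested. Mx1 was above the low-count threshold in 0 of the 4 KO-labelled libraries and Mx2 in 2 of them, so both had entered the test through the WT-labelled lines, whereas the other 8 genes passed in all 8 libraries. With the 2 libraries of each line summed, 2 lines against 2, 0 of the 10 genes were called (edgeR adjusted p = 0.0807 to 0.230). That fit called 0 of all 16927 genes it tested. An unadjusted edgeR p under 0.05 was found for 10 of the 10 genes and for 3658 of those 16927. In an exact permutation test, 4 libraries against 4 cannot give a two-sided p under 0.0286, and 2 lines against 2 cannot give one under 0.333.

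**Figure D1:**
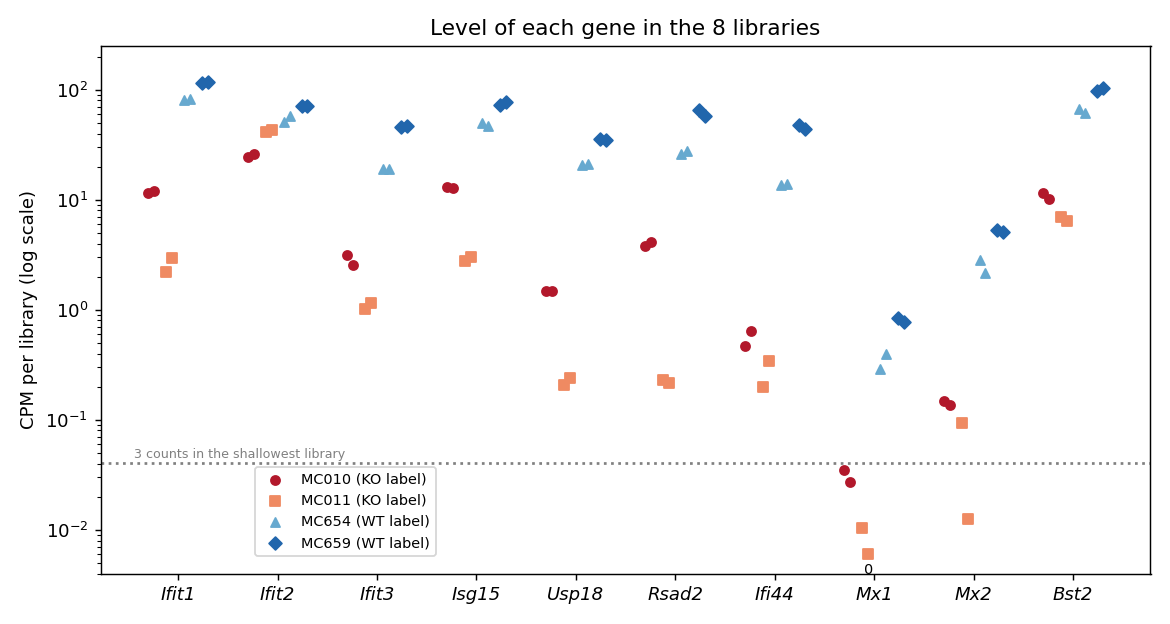
Level of each gene in each library, in CPM on a log axis, with 1 point per library, a colour and shape per line, and the point marked 0 for the library of MC011 with no Mx1 count. The dotted line marks the CPM equal to 3 counts in the shallowest library. For every gene the 4 KO-labelled points sit below the 4 WT-labelled points. They are closest for Ifit2 (1.17-fold between the nearest libraries) and farthest apart for Ifi44 (21.3-fold). The share of all genes separated in this way was not counted.

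The IFIT proteins, which are built of tetratricopeptide repeats, hold viral RNA or interfere with its translation. Their genes lie together on chromosome 19, Ifit2 at 34550694 to 34576419, Ifit3 at 34583531 to 34588731 and Ifit1 at 34640871 to 34650009 (GRCm38), all on the plus strand. Ifit1, whose protein binds the 5′ cap of RNA that lacks 2′-O methylation, measured 11.6 and 12.0 CPM in the pair from MC010, 2.22 and 2.95 in MC011, 80.8 and 81.6 in MC654, and 116.1 and 117.1 in MC659. The labels did not overlap, and the highest KO-labelled library stood 6.72-fold under the lowest WT-labelled one. Its log2 fold change was -3.78 (SE 0.60, edgeR adjusted p = 0.00190).

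Ifit3 measured 3.12 and 2.54 CPM in MC010, 1.02 and 1.15 in MC011, 19.1 and 18.9 in MC654, and 45.5 and 46.4 in MC659. Again the lines formed 4 separate levels, with MC659 highest, and the log2 fold change between the labels was -4.05 (SE 0.53, edgeR adjusted p = 0.000773). Ifit3 has a near-identical copy, Ifit3b, and 51.2% of the 50-base windows of its transcripts also occur in another gene, so the split of reads between these copies is uncertain. Ifit3b gave a log2 fold change of -3.81 (SE 0.51, edgeR adjusted p = 0.000866).

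Ifit2, which binds AU-rich RNA and is linked to cell death, differed from the other members in the order of its levels. It measured 24.4 and 26.1 CPM in MC010, 41.3 and 43.1 in MC011, 50.4 and 57.4 in MC654, and 70.6 and 71.1 in MC659. Here MC011 and not MC010 was the KO-labelled line nearer to the WT-labelled lines, and the gap between the labels was 1.17-fold. The log2 fold change was -0.89 (SE 0.22, edgeR adjusted p = 0.0141), from a mean of 33.7 ± 9.84 CPM under the KO label to 62.4 ± 10.2 under the WT label (SD, n = 4 libraries each). This call did not hold when a line was left out in 2 of 4 cases: without MC659 it was -0.69 with an edgeR adjusted p of 0.153, and without MC010 it was -0.58, under the fold threshold, with an adjusted p of 0.0128.

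The ratio of Ifit1 to Ifit2 counts within a library needs no scaling between libraries. It was 0.473 and 0.460 in MC010 and 0.0537 and 0.0684 in MC011, against 1.60 and 1.42 in MC654 and 1.64 and 1.65 in MC659. The 2 neighbouring genes were thus nearly in the same proportion in both WT-labelled lines and far apart from it in MC011, where Ifit2 counts far outnumbered those of Ifit1. The ratio was not tested.

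ISG15 is a ubiquitin-like protein that is coupled to other proteins, and USP18 is the protease that removes it and also blocks the interferon receptor. Isg15 (chromosome 4, 156199424 to 156200818, minus strand) measured 13.2 and 12.7 CPM in MC010, 2.80 and 3.04 in MC011, 49.9 and 47.1 in MC654, and 73.2 and 78.0 in MC659. The labels were apart by 3.58-fold at their nearest libraries. The log2 fold change was -2.97 (SE 0.57, edgeR adjusted p = 0.00494), and without MC659 it was -2.63 with an adjusted p of 0.0623.

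Usp18 (chromosome 6, 121245906 to 121270917, plus strand) measured 1.47 CPM in both libraries of MC010, 0.207 and 0.241 in MC011, 20.9 and 20.9 in MC654, and 36.0 and 35.0 in MC659. Its levels under the KO label were those of 19 to 168 counts, and the labels were 14.2-fold apart at their nearest libraries. The log2 fold change was -5.05 (SE 0.74, edgeR adjusted p = 0.00130), the third largest in size of the 10. An antisense transcript, Gm44148, overlaps Usp18, and the strand setting of the counting is not given in the sources used here, so reads of the pair may not be separated. Usp18 counts were 0.112 and 0.116 of the Isg15 counts in MC010, 0.0741 and 0.0792 in MC011, 0.418 and 0.444 in MC654, and 0.492 and 0.449 in MC659, so the ratio was lower in all 4 KO-labelled libraries than in all 4 WT-labelled ones.

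Rsad2 encodes viperin, a radical SAM enzyme that makes a chain-terminating nucleotide from CTP. The gene (chromosome 12, 26442746 to 26456452, minus strand) measured 3.82 and 4.11 CPM in MC010, 0.228 and 0.215 in MC011, 26.0 and 27.9 in MC654, and 65.5 and 58.1 in MC659. Of the 10 genes it had the widest gap between the 2 KO-labelled lines. The log2 fold change between the labels was -4.40 with an SE of 1.03 (edgeR adjusted p = 0.0114), and the call was lost without MC654 (-4.88, adjusted p = 0.0536) and without MC659 (-3.70, adjusted p = 0.107).

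Next to Rsad2 lies Cmpk2, a mitochondrial nucleotide kinase gene whose product supplies CTP, at 3.58 and 3.10 CPM in MC010, 1.97 and 2.05 in MC011, 12.5 and 13.6 in MC654, and 21.7 and 22.9 in MC659. The ratio of Rsad2 to Cmpk2 counts was 1.07 and 1.32 in MC010, 0.116 and 0.105 in MC011, 2.08 and 2.05 in MC654, and 3.02 and 2.54 in MC659. The ratio was thus above 1 in MC010 and in both WT-labelled lines, and under it in both libraries of MC011, where Cmpk2 counts far outnumbered those of Rsad2. It was not tested.

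Ifi44, an interferon-induced gene whose protein is less well understood, had the largest difference between the labels. It (chromosome 3, 151730922 to 151749960, minus strand) measured 0.472 and 0.639 CPM in MC010, 0.197 and 0.342 in MC011, 13.6 and 14.0 in MC654, and 48.1 and 43.5 in MC659. The KO-labelled levels rested on 19 to 54 counts per library and the WT-labelled ones on 1134 to 4245. The log2 fold change was -6.18 (SE 0.64, edgeR adjusted p = 0.000258).

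The Mx genes encode dynamin-like GTPases that block incoming viral particles, and lie near each other on chromosome 16, Mx1 at 97447035 to 97462907 on the minus strand and Mx2 at 97535308 to 97560900 on the plus strand. C57BL/6, like most laboratory strains, carries an internal deletion in Mx1 and makes no working MX1 protein. For both Mx genes the values below are of RNA only and do not show a working protein. Mx2 measured 0.149 and 0.136 CPM in MC010 (17 and 10 counts), 0.0934 and 0.0127 in MC011 (9 and 1 counts), 2.86 and 2.18 in MC654, and 5.26 and 5.14 in MC659. One library of MC011 was under the level of 3 counts, yet no KO-labelled library came within 14.6-fold of a WT-labelled one, and the log2 fold change was -5.27 (SE 0.63, edgeR adjusted p = 0.000516). From the counts summed over a line, Mx2 was 17.5-fold higher in MC654 than in MC010 (95% counting interval 11.9 to 26.9) and 91.1-fold higher in MC659 than in MC011 (49.3 to 190.7).

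Mx1 was the lowest of the group, with 4 and 2 counts in MC010, 1 and 0 in MC011, 24 and 34 in MC654, and 75 and 70 in MC659. In CPM these were 0.0350 and 0.0272, 0.0104 and 0, 0.288 and 0.400, and 0.850 and 0.778. The log2 fold change was -4.84 (SE 0.68, edgeR adjusted p = 0.00114). Summed over the 2 libraries of a line, Mx1 was 10.8-fold higher in MC654 than in MC010 (95% counting interval 4.67 to 30.6) and 25.5-fold higher in MC659 than in MC010 (11.4 to 70.6). Against the single count of MC011 the ratios were 60.4 for MC654 (10.4 to 2426) and 142.7 for MC659 (25.2 to 5675), so at this depth the size of that difference is known only within a wide range. These intervals cover counting error only.

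BST2, or tetherin, is a membrane protein that holds budding virions at the cell surface. Bst2 (chromosome 8, 71534255 to 71537456, minus strand) measured 11.6 and 10.1 CPM in MC010, 6.98 and 6.43 in MC011, 67.1 and 61.6 in MC654, and 97.8 and 103.4 in MC659. On the log2 scale the 2 KO-labelled lines lay closer together than for any of the other 9 genes. Its log2 fold change was -3.23 (SE 0.26), which gave the smallest edgeR adjusted p of the group, 8.79e-05, from a mean of 8.77 ± 2.47 CPM under the KO label to 82.5 ± 21.1 under the WT label (SD, n = 4 libraries each).

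Summed over the 10 genes, the libraries held 69.8 and 69.8 CPM in MC010, 55.1 and 57.5 in MC011, 330.9 and 332.1 in MC654, and 558.9 and 558.7 in MC659. Ifit2 alone made up most of the sum in MC011. Divided by the length of the exons, the order of the genes by level in MC659 was led by Bst2 at 111.4 CPM per kb, Isg15 at 100.0 and Ifit1 at 43.9. In MC654 the same 3 genes led at 71.3, 64.2 and 30.6 CPM per kb. In MC010 the order was Isg15 at 17.1, Bst2 at 12.0 and Ifit2 at 6.43 CPM per kb, and in MC011 it was Ifit2 at 10.7, Bst2 at 7.43 and Isg15 at 3.86. Ifi44, Mx2 and Mx1 were the 3 lowest in each of the 4 lines on this scale, with Mx1 at 0.00137 CPM per kb in MC011 and 0.215 in MC659.

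Each KO-labelled line was also set against each WT-labelled line in a fit with 1 group per line. These 4 comparisons share libraries and are given side by side. MC010 had 10 of the 10 genes called lower than MC654, with a background of 16.3% of all genes tested, and 10 of 10 called lower than MC659, with a background of 17.7%. MC011 had 9 of 10 called lower than MC654 (background 12.4%) and 10 of 10 called lower than MC659 (background 13.7%). The gene not called was Ifit2, at -0.35 (SE 0.07, edgeR adjusted p = 0.000240), under the fold threshold of 0.59. The median log2 difference of the 10 genes was -2.78 for MC010 and -5.21 for MC011 against MC654, and -3.98 for MC010 and -6.00 for MC011 against MC659. Mx1 and Mx2, which entered the test through the WT-labelled lines, are part of all these counts and medians.

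**Figure D2:**
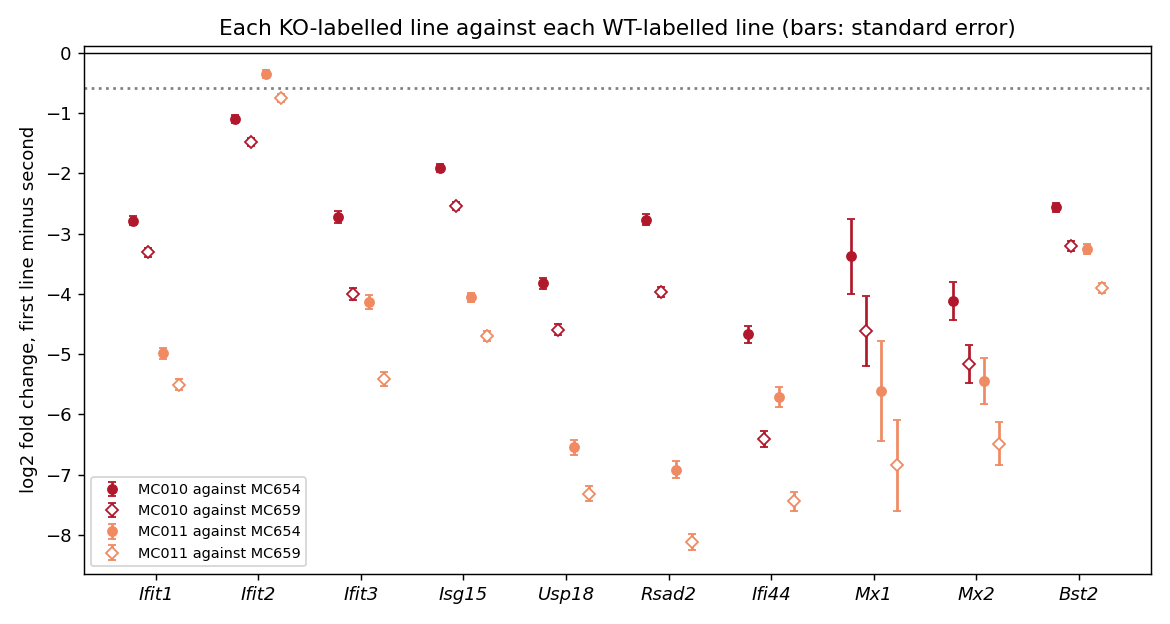
Log2 difference of each gene between a KO-labelled and a WT-labelled line, from edgeR with 1 group per line (2 libraries each); bars are standard errors, the solid line marks no difference and the dotted line the fold threshold of 0.59. Ifit2 in MC011 against MC654 (-0.35) is the one point above the dotted line, and Rsad2 in MC011 against MC659 (-8.11) is the lowest.

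The largest of these differences was that of Rsad2 in MC011 against MC659, at -8.11 (SE 0.13), followed by Ifi44 at -7.44 (SE 0.15) and Usp18 at -7.31 (SE 0.12) in the same pair of lines. MC010 showed a different leader, since Ifi44 was its largest difference against both MC654 (-4.67, SE 0.14) and MC659 (-6.40, SE 0.14). Rsad2 in MC010 was -2.77 (SE 0.09) against MC654 and -3.97 (SE 0.09) against MC659.

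The 2 lines with the KO label differed from each other in these genes. In MC010 against MC011, 7 of the 10 genes were called higher in MC010, where 15.7% of all genes tested were, and 1 was called lower, where 16.0% were. Rsad2 was 4.14 higher in MC010 on the log2 scale (SE 0.17), Usp18 was 2.72 higher (SE 0.18), Ifit1 2.20 (SE 0.09), Isg15 2.15 (SE 0.08), Ifit3 1.41 (SE 0.13), Ifi44 1.04 (SE 0.27) and Bst2 0.70 (SE 0.08). Ifit2 was the one called lower in MC010, at -0.74 (SE 0.07, edgeR adjusted p = 1.18e-07). Mx1 and Mx2 did not pass, with log2 differences of 2.23 (SE 1.23, edgeR adjusted p = 0.128) and 1.32 (SE 0.59, edgeR adjusted p = 0.0622) on few counts.

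The lines with the WT label differed too. In MC654 against MC659, 7 of the 10 genes were called lower in MC654, where 3.71% of all genes tested were. Ifi44 stood at -1.73 (SE 0.09), Ifit3 at -1.28 (SE 0.08), Rsad2 at -1.20 (SE 0.07), Mx2 at -1.04 (SE 0.22), Usp18 at -0.77 (SE 0.07), Bst2 at -0.64 (SE 0.07) and Isg15 at -0.64 (SE 0.06). Ifit1 at -0.52 (edgeR adjusted p = 5.81e-05) and Ifit2 at -0.40 (edgeR adjusted p = 0.000607) were under the fold threshold, and Mx1 at -1.24 missed the p threshold (edgeR adjusted p = 0.0657). The order of the mean levels was MC659, MC654, MC010 and MC011 from high to low for the genes other than Ifit2, for which MC011 stood above MC010. Neighbours in that order that did not differ past an adjusted p of 0.05 were MC010 and MC011 for Mx1 and Mx2 and MC654 and MC659 for Mx1.

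**Figure D3:**
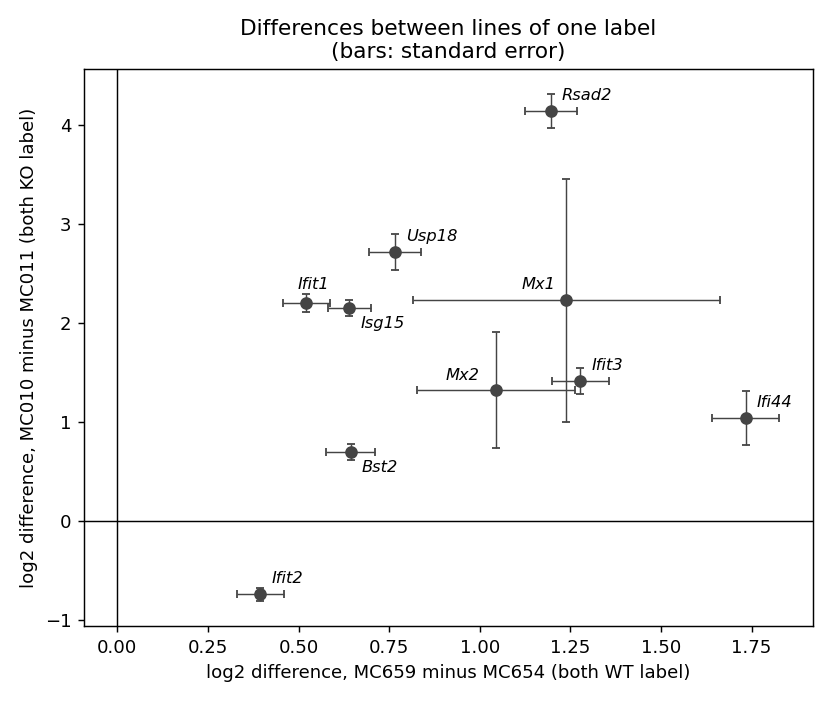
Log2 difference between the 2 lines of the KO label (vertical axis, MC010 minus MC011) against that between the 2 lines of the WT label (horizontal axis, MC659 minus MC654), 1 point per gene, bars are standard errors. Rsad2 stands highest at 4.14, Ifi44 farthest right at 1.73, and Ifit2 is the one gene under the horizontal line, at -0.74.

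Other genes of the pathway were taken from lists that, like the 10 genes, were drawn up with results of these data known. Of 34 such genes 33 were tested, and 19 were called lower under the KO label, 1 was called higher and 13 were not called, with a median log2 fold change of -0.89. Of all genes tested, 8.72% were called lower and 13.7% higher in this comparison, which is also the background of the counts by role below. With the libraries of a line summed, 0 of the pathway genes and 0 of all 16927 genes tested were called. The 8 interferon ligand genes looked for are not analysed here.

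**Figure D4:**
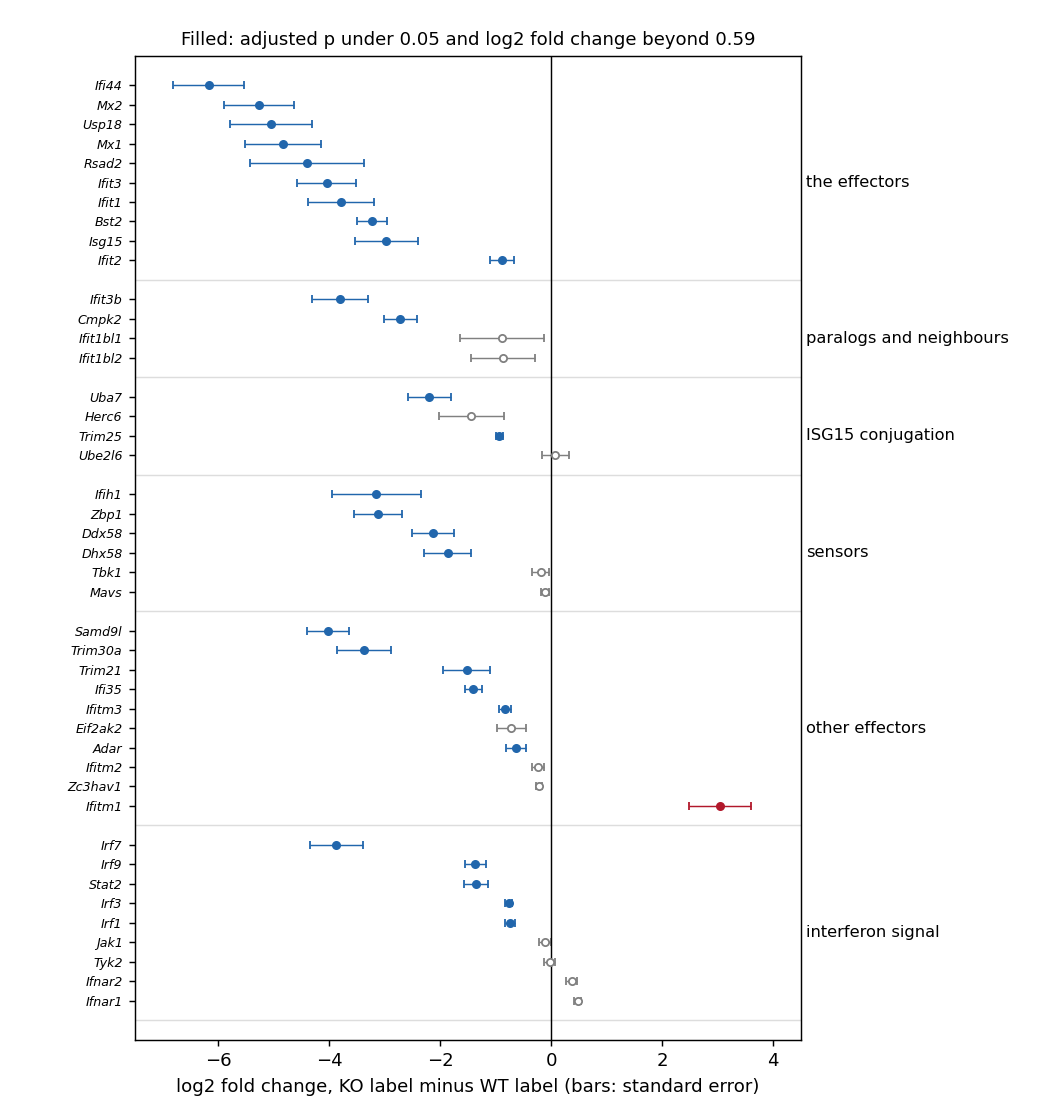
Log2 fold change of each gene between the labels (KO minus WT, 4 libraries each, edgeR), grouped by role; bars are standard errors and filled points passed both thresholds. The 10 effectors lie at -6.18 to -0.89, Ifitm1 at 3.04 is the one gene called higher, and the receptor genes Ifnar1 and Ifnar2 lie to the right of zero under the fold threshold.

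Among 9 genes that carry the interferon signal, 5 were called lower. Irf7, which amplifies the response, had the largest difference at -3.87 (SE 0.48, edgeR adjusted p = 0.000608), from 0.954 to 3.51 CPM under the KO label to 22.7 to 46.3 under the WT label. Of the transcription factors that the receptor activates, Stat2 was lower at -1.36 (SE 0.21) and Irf9 at -1.37 (SE 0.19). Irf1 at -0.74 and Irf3 at -0.76 were also called. The kinases Jak1 (-0.11, edgeR adjusted p = 0.429) and Tyk2 (-0.03, edgeR adjusted p = 0.868) were not. The receptor chains Ifnar1 at 0.48 (edgeR adjusted p = 0.000522) and Ifnar2 at 0.37 (edgeR adjusted p = 0.0217) were higher under the KO label but under the fold threshold.

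The enzymes that attach ISG15 did not move together. Uba7, its activating enzyme, was called lower at -2.20 (SE 0.39, edgeR adjusted p = 0.00313), and so was the ligase Trim25 at -0.93 (SE 0.06). Herc6, the main ISG15 ligase of the mouse, was at -1.44 (SE 0.59, edgeR adjusted p = 0.0890) and did not pass, with 5.16 and 5.09 CPM in MC010, near the 6.20 and 6.71 of MC654, and 1.02 and 1.08 in MC011. The conjugating enzyme Ube2l6 was at 0.07 (SE 0.24, edgeR adjusted p = 0.835), with overlapping levels.

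Of 6 genes that take part in RNA and DNA sensing 4 were called lower. These were Ifih1, the sensor of long double-stranded RNA, at -3.15 (SE 0.80), Zbp1 at -3.12 (SE 0.43), Ddx58, which encodes RIG-I, at -2.13 (SE 0.38), and Dhx58 at -1.87 (SE 0.43). The adaptor Mavs at -0.11 and the kinase Tbk1 at -0.19 were not called. Of 10 other effectors 6 were called lower, led by Samd9l at -4.02 (SE 0.37) and Trim30a at -3.37 (SE 0.49). Ifitm1, a membrane protein that hinders viral entry, was the one called higher, at 3.04 (SE 0.55, edgeR adjusted p = 0.00376), with 4.70 and 3.92 CPM in MC010, 18.1 and 17.0 in MC011, 1.21 and 1.06 in MC654, and 1.52 and 1.52 in MC659. Ifitm2 (-0.24, edgeR adjusted p = 0.119) was not called and Ifitm3 was called lower at -0.83.

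Of 4 tested paralogs and neighbours of the 10 genes, Ifit3b and Cmpk2 (-2.72, SE 0.30) were called lower, while Ifit1bl1 at -0.89 (edgeR adjusted p = 0.394) and Ifit1bl2 at -0.87 (edgeR adjusted p = 0.274) were not called and overlapped between the labels.

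Between the lines of one label the same 33 genes gave 14 called higher and 2 called lower in MC010 than in MC011, beside 15.7% and 16.0% of all genes tested. Ifih1 at 3.10 (SE 0.14), Herc6 at 2.29 (SE 0.14) and Dhx58 at 1.51 (SE 0.11) were among the higher ones, and the lower ones were Ifitm1 at -2.02 (SE 0.12) and Ifit1bl2, a paralog of Ifit1 with few counts, at -1.86 (SE 0.58). Between MC654 and MC659, 11 were called lower in MC654 and 0 higher, beside 3.71% and 1.24% of all genes tested, with Zbp1 at -1.17 (SE 0.18) and Trim30a at -1.10 (SE 0.09) among them.

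Genes beside the 10 on the chromosome were described to show whether their neighbourhoods differed as well. Within 200 kb, 45 other genes were tested, of which 9 were called lower and 7 higher, with a median log2 fold change of -0.00, beside 8.72% and 13.7% of all genes tested. Without the genes of the lists, 7 of 41 were called lower and 7 higher. Beside the Ifit genes, Lipa was at -0.49 (edgeR adjusted p = 0.0844) and Pank1 was called higher at 0.74. Next to Mx1, Bace2 was called higher at 4.79, and next to Ifi44, Ptgfr was called higher at 1.48. Of the 9 called lower, 5 lay around Isg15: AW011738 at -2.46, Tnfrsf4 at -2.36, Gm16008 at -1.38, Gm37090 at -1.04 and Agrn at -0.87.

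The genes with the most similar pattern over the 8 libraries were ranked by Pearson's r between their log2(CPM + 0.1) and the mean of the 10 genes, among 11754 other genes with a mean of at least 1 CPM. The 5 highest were Tbrg1 (r = 0.999), Ifi35 (0.998), Txndc16 (0.998), Slfn8 (0.997) and Fermt2 (0.997), a description over 8 libraries of 4 lines with no test. Their size of change differed widely, from -0.32 for Tbrg1 to -2.76 for Slfn8, a Schlafen family gene. On the same measure, Ifit2 had r = 0.731 with the mean of the 10 genes it belongs to, below 2278 of the candidates, and the other 9 had 0.975 to 0.998.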

How the data were processed

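Reads were aligned by the authors with STAR to mm10, and HTSeq gave the raw counts per gene and library that were deposited. The submitters' processing notes give STAR 2.7.3a, HTSeq 0.11.2 and GRCm38.p6. The deposited table also holds size-factor scaled values and the authors' own comparison (mean, log2 fold change, error, statistic, p-value and adjusted p-value), which were not used. It lists genes with at least 20 counts in all.

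Counts were analysed in R 4.3.3 with edgeR 4.0.16. Genes passed filterByExpr by label (15153 of 18768), which set a CPM cutoff of 0.115, and were scaled by TMM. The robust quasi-likelihood test took the label as its one term over 8 libraries, and a second fit had 1 group per line. P-values were adjusted over all genes tested by the Benjamini-Hochberg method. A call needed an adjusted p under 0.05 and a log2 fold change beyond 0.59, and the standard error was the log2 fold change divided by the square root of F. The scripts were tested on simulated data. The 10 genes and the lists were chosen with earlier results of these data known. A gene of the lists is not reported here. The text names all 10 genes, genes of the lists and the 5 most similar genes; neighbouring genes were picked after their values were seen. Counts of a library pair of 1 line differed by more than sampling noise. Promoters came from RefSeq and gene positions from GENCODE, both on GRCm38. Alternatives were DESeq2 1.42.0, limma-voom (limma 3.58.1), other scalings and filters, sums per line, a replicate block, and leaving out libraries or lines. Total counts of 74063616 to 116206078 per library set a floor of 3 counts at 0.0262 to 0.0408 CPM.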

Additional observations from a re-analysis of the deposited data

Results flagged for a closer look

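The 2 lines with the KO label differed from each other in 8 of the 10 genes by the edgeR test of MC010 against MC011. Of all genes tested, 15.7% were called higher and 16.0% lower in MC010. The log2 difference, MC010 minus MC011, was 2.20 for Ifit1, 1.41 for Ifit3, 2.15 for Isg15, 2.72 for Usp18, 4.14 for Rsad2, 1.04 for Ifi44 and 0.70 for Bst2, and it was -0.74 for Ifit2. With 2 lines there is no spread between lines of this label to set these values against, and whether the lines' Irf8 counts have a part in it was not tested. Among the 20 sets of 4 libraries (10 genes, 2 labels), Dixon's criterion marked no library, but each set holds 2 libraries of each of 2 lines, and where the lines form 2 pairs it can hardly mark one.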

How the results depend on the processing

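The count of the 10 genes called lower under the KO label was 10 with DESeq2, without a filter on low counts, with both other scalings, with limma-voom and the line as a random block, and without a fold threshold. It was 0 when the counts of a line were summed, as was the count of pathway genes (19 in the main comparison). That fit has 4 samples and called 0 of the 16927 genes it tested. Leaving out each library gave 10 of the 10 genes each time, with edgeR adjusted p-values of at most 0.0429. With the replicate block, 10 of 10 were called lower (edgeR adjusted p = 0.000447 to 0.0265). Same-numbered libraries of different lines had deviations correlated at -0.15 to 0.25. The values were 0.17 to 0.25 among MC654, MC010 and MC011, and -0.15 to -0.11 between MC659 and each of these. Whether same-numbered libraries share more than a number was not tested. With a line left out, Ifit2, Isg15 and Rsad2 lost calls as given beside their values. No direction of the 10 genes was reversed in the fits run. Depth limits Mx1 and Mx2 in the KO-labelled lines. Both are part of the counts of 10 above, and in the main fit they entered through the WT-labelled lines.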
